A study of Mus musculus with 10 samples.

Results

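The urea cycle in the liver of lactating mice was followed through its 7 genes: Nags, Cps1, Otc, Slc25a15, Ass1, Asl and Arg1. Members were taken by symbol, as every probe set annotated to exactly one of these genes. This gave 10 probe sets for the 7 genes, out of 45037 probe sets tested and 18193 genes named in the whole series. A probe set is the group of short probes on an Affymetrix array that reads 1 transcript.

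Liver RNA came from 10 lactating mice of the QSi5 strain, 1 array per mouse. The 5 HGI mice had food of high glycaemic index, in which glucose made up 51.4% by weight (15.6 MJ/kg gross energy). The 5 LGI mice had food of low glycaemic index, with the same share, 51.4%, of the starch Hi-Maze (labelled high amylase starch) and 16.3 MJ/kg. Both diets were fed from pregnancy until lactation peaked, when livers were taken. The labels give a positive energy balance for all HGI mice and a negative one for all LGI mice, so effects of diet and of energy balance cannot be told apart. The sources used here give no age for the mice.

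The urea cycle turns ammonia, which is toxic, into urea for excretion, and in mammals it runs in full mainly in hepatocytes. Its first steps lie in the mitochondrion, where carbamoyl phosphate is made and joined to ornithine. The citrulline so formed leaves for the cytosol, takes up a second nitrogen from aspartate and is split through arginine into urea and ornithine, which returns to the mitochondrion. In liver the amounts of these enzymes are known to follow protein intake, glucagon and glucocorticoids.

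All values are log2 expression as deposited, and differences are HGI minus LGI on that log2 scale. Levels of different probe sets are not set against each other, since each has probes of its own. None of the 10 urea cycle probe sets passed limma's test at an adjusted p under 0.05, a threshold that 0.0644% of all probe sets passed. Of the 10 differences, 9 were below 0, where 55.8% of all probe sets were, and 60% of the brighter ones, whose mean log2 was 6 or more. Some of these probe sets read the same gene, Otc or Slc25a15, and so are not separate observations. The remaining one, the single probe set listed for Ass1 alone, stood above 0. The members were chosen with earlier results of these data known, so the counts that follow are no test of an excess. At an unadjusted p under 0.05 limma gave 4 of the 10, against 7.54% of all probe sets, and the exact permutation test gave 3, against 7.31%. Of these 4, 2 read Otc and share that target, 1 reads Cps1 and 1, in the opposite direction, is the probe set listed for Ass1 alone. That one stood at 0.31 without HGI 2. A second probe set, which lists Ass1 together with Gm5424 and is no member, stood at -0.30. With 1 probe set per gene, that of the highest mean, 6 of the 7 genes were below 0, Arg1 at only -0.01. Over all named genes 58.2% were below 0, and 62.1% of the brighter of them (mean log2 of 6 or more). The median difference of the 7 genes was -0.19, beside -0.03 over all named genes and -0.04 over the brighter of them.

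**Figure D1:**
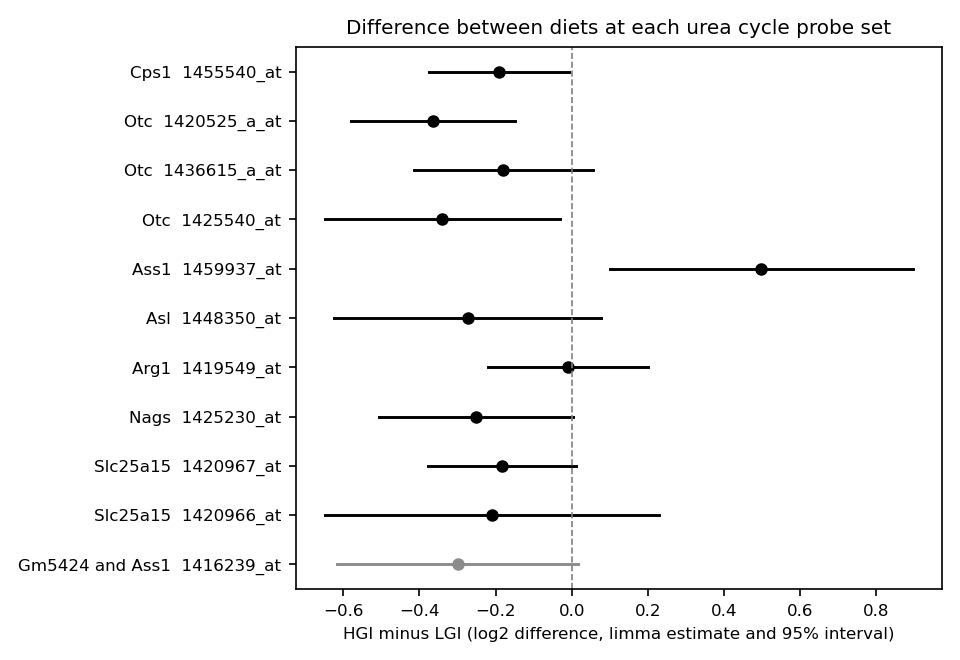
Difference between the diets (HGI minus LGI, log2) at each of the 10 urea cycle probe sets, in black, and at the probe set that lists both Gm5424 and Ass1, in grey. Points are limma estimates and lines their 95% intervals. All points but Ass1 lie below 0, from -0.36 for Otc to -0.01 for Arg1, and Ass1 lies at 0.50.

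Otc, ornithine transcarbamylase, joins carbamoyl phosphate to ornithine to give citrulline in the mitochondrion, and it had the smallest p of the 7 genes. At its brightest probe set (1420525_a_at) the HGI mice had 11.63, 11.90, 11.87, 11.88 and 11.45 log2, against 12.13, 12.16, 12.22, 12.00 and 12.05 log2 in the LGI mice. Every HGI mouse was below every LGI mouse, and HGI 5 and HGI 1 were the lowest. Groups that do not overlap, with HGI below LGI, were seen at 1 of the 10 urea cycle probe sets and at 1.2% of all probe sets. The mean was 11.75 ± 0.20 in HGI and 12.11 ± 0.09 in LGI (SD, n = 5 each), a difference of -0.36 with a 95% interval of -0.58 to -0.15, or 1.29-fold lower in HGI. It did not pass over all probe sets (limma adjusted p = 0.328), while the two-sided exact permutation p was 0.00794, the smallest that 5 against 5 arrays can give.

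The other Otc probe sets had means on the same side. At 1425540_at the HGI mice had 6.95, 7.25, 7.14, 7.30 and 7.12 log2, against 7.37, 7.92, 7.65, 7.002 and 7.52 log2 in the LGI mice. LGI 4 alone reached into the HGI range, and the difference was -0.34 (95% interval -0.65 to -0.03, limma adjusted p = 0.615, exact permutation p = 0.0794). At 1436615_a_at the groups overlapped, with a mean of 10.34 ± 0.24 in HGI and 10.52 ± 0.08 in LGI (SD, n = 5 each) and a difference of -0.18 (95% interval -0.42 to 0.06, limma adjusted p = 0.765). In bulk liver, fewer cells of a type and less RNA per cell cannot be told apart, and this holds for every difference given here.

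Otc and Ass1 are shown by the 250 bases before the start of each gene, since their probe sets stood on opposite sides of 0, at -0.36 and 0.50. The Ass1 value is that of its own probe set and was 0.31 without HGI 2, and a second probe set that lists Ass1 with another gene stood at -0.30. The sequences are RefSeq's (GRCm38.p6, both on the plus strand, 5′ to 3′), Otc from chrX:10252055-10252304 and Ass1 from chr2:31470020-31470269. Capitals mark matches, on either strand, to the C/EBP core TTNCNNAA, the GC box GGGCGG and the E box CACGTG.
Otc: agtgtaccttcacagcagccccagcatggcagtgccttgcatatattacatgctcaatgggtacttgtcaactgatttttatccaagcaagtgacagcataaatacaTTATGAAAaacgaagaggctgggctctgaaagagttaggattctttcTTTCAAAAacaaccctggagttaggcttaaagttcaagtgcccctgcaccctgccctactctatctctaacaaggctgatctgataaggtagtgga
Ass1: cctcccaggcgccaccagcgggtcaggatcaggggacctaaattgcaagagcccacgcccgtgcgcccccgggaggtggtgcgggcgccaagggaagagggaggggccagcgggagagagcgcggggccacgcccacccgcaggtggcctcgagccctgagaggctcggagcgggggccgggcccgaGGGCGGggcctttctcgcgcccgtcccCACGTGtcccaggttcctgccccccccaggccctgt
Otc held 2 matches to the C/EBP core, which begin 143 and 96 bases before the start, and 36.8% of all 32851 RefSeq promoter windows of this length held at least 1. Ass1 held 1 GC box, 63 bases before the start, and 1 E box, 36 bases before it, motifs found in 32.7% and 6.02% of windows. Neither held TATAAA (12.4% of windows), CCAAT (33.8%), the HNF4 motif CAAAGTCCA (0.384%) or the cAMP response element TGACGTCA (1.55%), and the matches did not overlap each other. The G and C content was 43.6% for Otc and 75.6% for Ass1, with a median of 52.4% over all windows. A match to letters describes the sequence and is not a measured binding site.

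Cps1, carbamoyl phosphate synthetase, makes the carbamoyl phosphate that enters the cycle and is the enzyme that commits ammonia to it. Its 1 probe set (1455540_at) read 13.25, 13.37, 13.43, 13.24 and 13.16 log2 in the HGI mice, against 13.45, 13.59, 13.51, 13.29 and 13.56 log2 in the LGI mice. The groups overlapped through LGI 4, which was lower than 2 of the HGI mice. The means were 13.29 ± 0.11 in HGI and 13.48 ± 0.12 in LGI (SD, n = 5 each), a difference of -0.19 (95% interval -0.37 to -0.01, limma adjusted p = 0.650, two-sided exact permutation p = 0.0317).

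Nags, N-acetylglutamate synthase, makes the activator without which Cps1 is inactive. It read 8.39, 8.96, 9.07, 8.81 and 8.77 log2 in the HGI mice, against 9.09, 8.91, 9.07, 8.97 and 9.22 log2 in the LGI mice. HGI 1 was the lowest of the 10 arrays, and the other HGI mice reached into the LGI range or lay just under it. The difference was -0.25 (95% interval -0.51 to 0.00, limma adjusted p = 0.671), and -0.15 without HGI 1, the array with the narrowest spread of values over all probe sets.

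Slc25a15 carries ornithine into the mitochondrion in exchange for citrulline. At its brighter probe set (1420967_at) it read 11.10, 11.00, 11.14, 11.25 and 11.08 log2 in the HGI mice, against 11.08, 11.45, 11.43, 11.32 and 11.19 log2 in the LGI mice. The groups overlapped, with LGI 1 and LGI 5 among the HGI values, and the difference was -0.18 (95% interval -0.38 to 0.01, limma adjusted p = 0.695). The dimmer probe set (1420966_at) ranged from 7.06 to 8.16 in HGI and from 7.39 to 8.31 in LGI, wide ranges beside a difference of -0.21 (95% interval -0.65 to 0.23, limma adjusted p = 0.883).

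**Figure D2:**
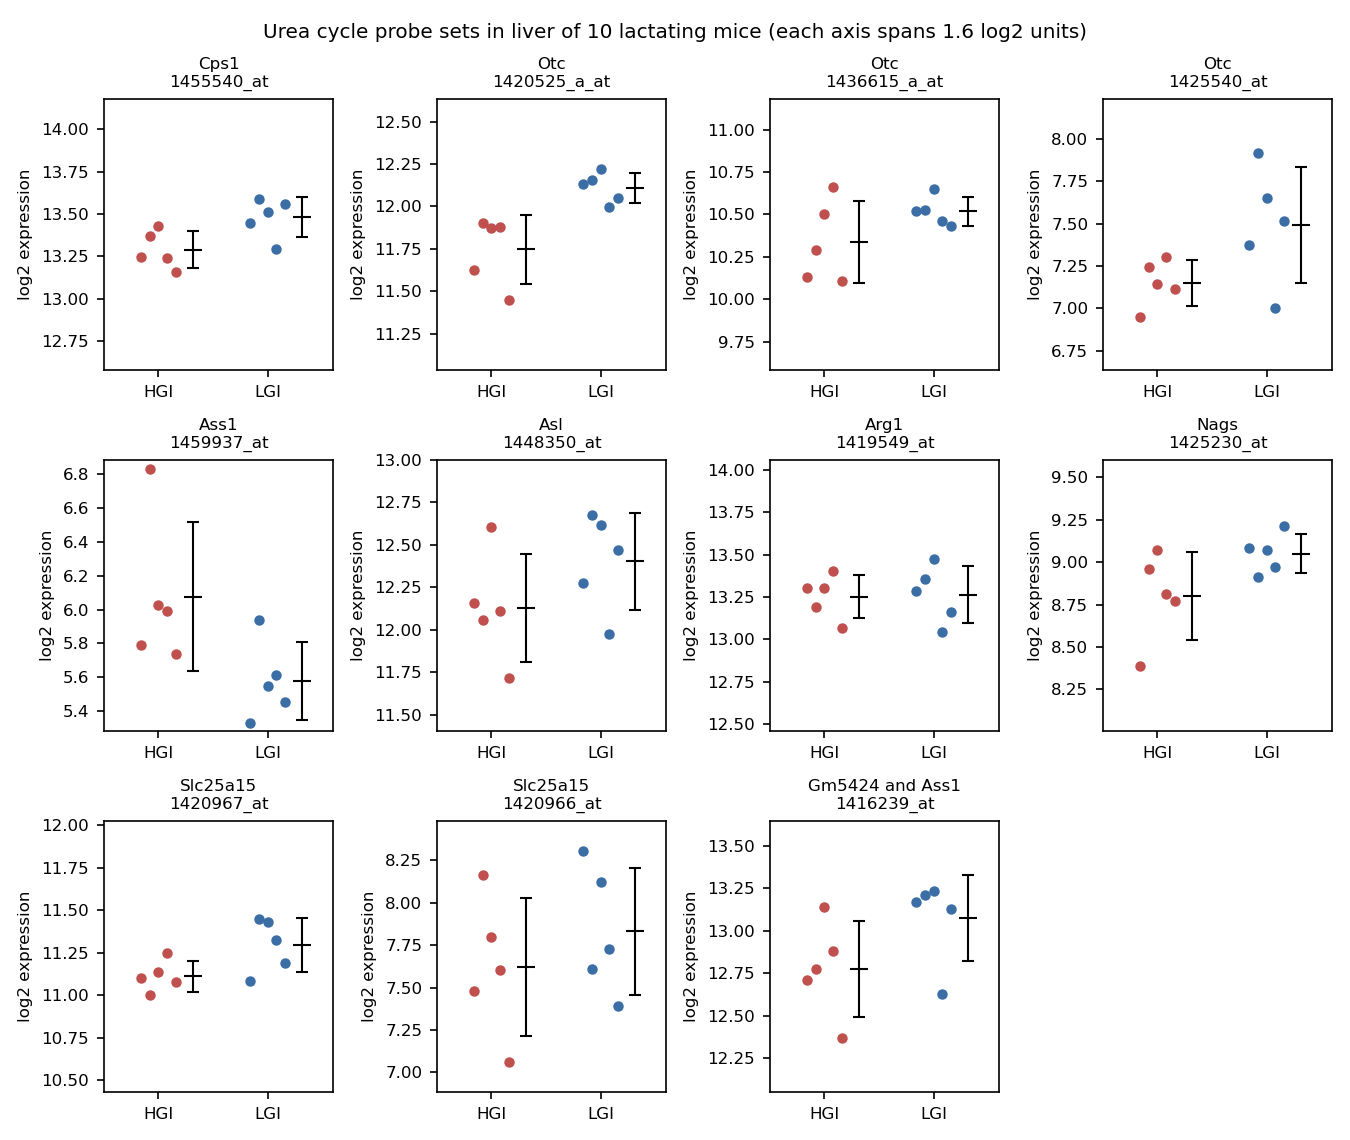
Log2 expression of the urea cycle probe sets in the 5 HGI mice (red, left) and the 5 LGI mice (blue, right), arrays 1 to 5 from left to right within a diet. Points are single mice, bars the mean ± SD, and each vertical axis spans 1.6 log2 units around its own centre. The groups lie apart only at the Otc probe set 1420525_a_at, where HGI reached 11.90 at most and LGI 12.00 at least.

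In the cytosol, Asl, argininosuccinate lyase, splits argininosuccinate into arginine and fumarate. It read 12.16, 12.06, 12.61, 12.11 and 11.71 log2 in the HGI mice, against 12.28, 12.68, 12.62, 11.97 and 12.47 log2 in the LGI mice. HGI 3 lay among the high LGI mice and LGI 4 among the low HGI mice. The difference of -0.27 (95% interval -0.62 to 0.08, limma adjusted p = 0.759) was smaller than the SD of HGI, 0.32, and of LGI, 0.29, and it was -0.17 without HGI 5.

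Arg1, liver arginase, releases urea from arginine and gives ornithine back. It read 13.30, 13.19, 13.30, 13.40 and 13.07 log2 in the HGI mice, against 13.28, 13.36, 13.47, 13.04 and 13.16 log2 in the LGI mice. The diets covered almost the same range, and the difference was -0.01 with a 95% interval of -0.22 to 0.20 (limma adjusted p = 0.992), so a difference beyond 1.17-fold in either direction lies outside the interval. Arg1 is also known as a marker of alternatively activated macrophages. The summed linear signal of the 5 markers listed for these cells was 364 to 508 in HGI and 291 to 419 in LGI, and the defining markers Chil3 and Retnla averaged less than the median of any array. The other 3, Mrc1, Cd163 and Il4ra, averaged 7.50, 6.85 and 6.08 log2, with differences of 0.33, 0.34 and 0.27 (limma adjusted p = 0.599, 0.704 and 0.532). Their part in the Arg1 value was not tested.

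Ass1, argininosuccinate synthase, joins citrulline and aspartate and brings the second nitrogen into the cycle. Its own probe set (1459937_at), built on the expressed sequence tag BM213298, read 5.79, 6.83, 6.03, 5.99 and 5.74 log2 in the HGI mice, against 5.33, 5.94, 5.55, 5.61 and 5.46 log2 in the LGI mice. HGI 2 stood far above all other arrays, and LGI 2 reached into the HGI range. The means were 6.08 ± 0.44 in HGI and 5.58 ± 0.23 in LGI (SD, n = 5 each), a difference of 0.50 (95% interval 0.10 to 0.90, limma adjusted p = 0.535, two-sided exact permutation p = 0.0317). Without HGI 2 it was 0.31.

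A second probe set (1416239_at) lists Ass1 together with Gm5424, a transcribed pseudogene, and so is no member by the rule, but its platform accession, NM_007494, is the RefSeq transcript of Ass1. It read 12.71, 12.78, 13.14, 12.88 and 12.37 log2 in the HGI mice, against 13.17, 13.21, 13.24, 12.63 and 13.13 log2 in the LGI mice. Apart from HGI 3 and LGI 4, each HGI mouse lay below each LGI mouse, opposite to the order at the Ass1 probe set. The difference was -0.30 (95% interval -0.62 to 0.02, limma adjusted p = 0.690), and the transcripts of both genes cannot be told apart there. Without HGI 5 it was -0.20. With the shared probe set in place of the Ass1 one, the median difference of the 7 genes was -0.25.

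**Figure D3:**
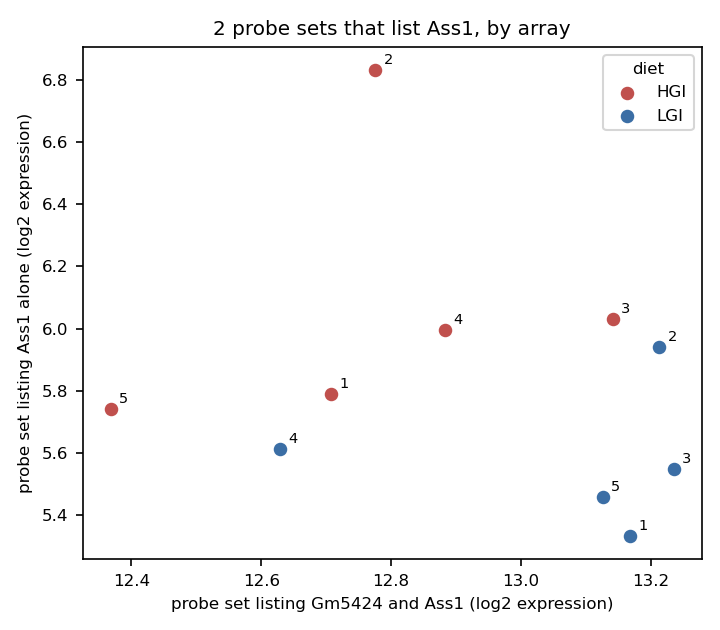
Log2 expression at the probe set that lists Ass1 alone (vertical) against the probe set that lists Gm5424 and Ass1 (horizontal), in the 5 HGI mice (red) and the 5 LGI mice (blue), labelled by number. HGI 2 stands at 6.83 on the vertical axis, above all other arrays, and HGI 5 and LGI 4 are the lowest on the horizontal axis, at 12.37 and 12.63.

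Among mice of 1 diet, Cps1 and Asl moved together most closely. With the mean of each diet subtracted, Pearson's r over the 10 arrays was above 0 in 19 of the 21 pairs of the 7 genes. For Cps1 and Asl it was 0.88 (exact permutation within diets p = 0.00229, adjusted over the 21 pairs p = 0.0481) and Spearman's rho was 0.84 (exact permutation p = 0.00549, adjusted p = 0.115). Without HGI 3 and LGI 4, the arrays farthest from the median of Cps1, r was 0.77. No other of the 21 pairs had an adjusted p of r under 0.05, and with 5 mice a diet no r within a diet is given. The shared Gm5424 and Ass1 probe set, set against the 7 genes after its values were seen, had an r of 0.92 with Asl (exact permutation p = 0.00243, adjusted over 7 pairs p = 0.0105; rho 0.83, exact permutation p = 0.00701, adjusted p = 0.0413; r 0.79 without HGI 5 and LGI 4). Its r with Cps1, Otc and Arg1 was 0.86, 0.80 and 0.78 (exact permutation, adjusted p = 0.0144, 0.0105 and 0.0211). Without the same arrays these were 0.55, 0.53 and 0.33, and the adjusted exact permutation p of rho was 0.0809, 0.109 and 0.0413. For Nags and Slc25a15 r was 0.40 and 0.16 (exact permutation, adjusted p = 0.435 and 0.685). With the Ass1 probe set r was 0.18 (exact permutation p = 0.635, adjusted p = 0.685), or -0.07 without the same arrays. There rho was 0.26 (exact permutation p = 0.490, adjusted p = 0.490).

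Single mice ran low across the cycle. HGI 5 lay below the median of its diet at all 7 genes and was the lowest HGI mouse at 5 of them, Cps1, Otc, Ass1, Asl and Arg1. LGI 4 lay below the median of its diet at 5 genes and was the lowest LGI mouse at Cps1, Otc, Asl and Arg1. LGI 1 and LGI 5 lay below that median at 4 genes each. HGI 5 and LGI 4 had the highest summed signal of the 11 Kupffer cell markers in their diets. It was 4872 in HGI 5, against 2841 to 3447 in the other HGI mice. In LGI 4 it was 4002, against 2336 to 3305 in the other LGI mice, with 2441 in LGI 5. All 11 of these markers, of the resident macrophages of liver, had differences above 0, with a median of 0.28. Over all named genes 58.2% were below 0, as were 6 of the 7 urea cycle genes, with Ass1 read by its own probe set. At an unadjusted p under 0.05 limma gave 1 of the 11 markers, against 9.3% of named genes, and 0 passed the adjusted threshold. The markers are of the same cells and so are not separate observations. Without HGI 5, 9 of the 11 were above 0 and the median was 0.13. LGI 4 also had the lowest mean correlation with the arrays of its diet, 0.988, and the highest levels of the neutrophil genes S100a8 and S100a9. S100a8 read 8.92 log2 in LGI 4, 3.95 to 4.28 log2 in the other LGI mice and 3.88 to 6.28 log2 in the HGI mice. S100a9 read 9.31, 5.40 to 5.75 and 5.25 to 6.78 log2 in the same order. The neutrophil markers Ngp and Mpo read 4.39 and 4.29 log2 in LGI 4, against at most 4.38 and 4.19 log2 on the other arrays. Camp was lower in LGI 4 than in HGI 5 and LGI 5. Whether LGI 4 held more neutrophils was not tested.

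The liver endothelial and erythroid marker lists also lay on the side of the Kupffer cell markers, while several other lists lay near 0. At an unadjusted p under 0.05 limma gave 2 of the 10 endothelial and 2 of the 4 measured erythroid markers, against 9.3% of named genes. Of 10 liver endothelial markers 9 were above 0, with a median of 0.15, summed signals of 1224 to 1764 in HGI and 1083 to 1512 in LGI, and Stab2 at 0.76 (limma adjusted p = 0.217). All 4 measured erythroid markers were above 0, with a median of 0.72 and summed signals of 609 to 1389 in HGI and 302 to 755 in LGI. Of these, Slc4a1, the red cell anion exchanger, stood at 2.25 (limma adjusted p = 0.0625) and Alas2, which makes heme in red cells, at 1.34 (limma adjusted p = 0.262). Klf1 and Epor stood at only 0.08 and 0.09 (limma adjusted p = 0.940 and 0.927), so no erythroid marker lay near the median. These values are of the brightest probe set of each gene. Over all 6 erythroid probe sets, 1 that was not the brightest of its gene passed limma's adjusted threshold, where 0.0644% of all probe sets passed. Of 4 adipocyte markers 2 were above 0, with a median of -0.01 and summed signals of 127 to 408 in HGI and 102 to 160 in LGI. Fabp4 stood at 1.08 (limma adjusted p = 0.276), and the other 3, Cidec, Lep and Adipoq, averaged less than the median of any array. The stellate, neutrophil, cholangiocyte and pancreas lists had medians of 0.00, 0.01, 0.02 and -0.02. The part of these cells in the urea cycle differences was not tested. In a comparison added once the values were known, without HGI 5 and LGI 4, the differences were -0.32 for Otc, -0.20 for Cps1, -0.28 for Asl and -0.02 for Arg1.

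**Figure D4:**
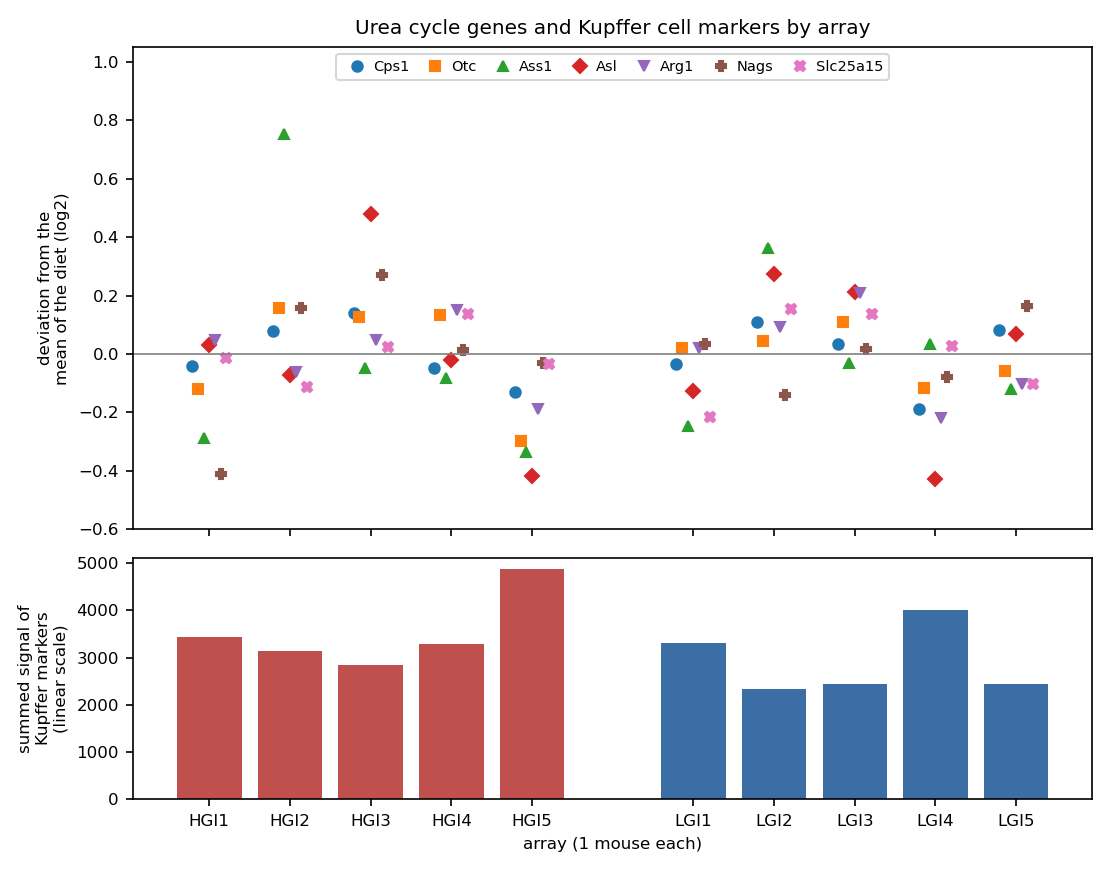
Upper panel, deviation of each urea cycle gene from the mean of its diet (log2, 1 probe set per gene) on each array; lower panel, summed linear signal of 11 Kupffer cell markers on the same arrays (HGI red, LGI blue). HGI 5 and LGI 4 have the highest marker sums, 4872 and 4002. Most genes of the cycle lie below 0 there, but also on other arrays, among them LGI 5, with a sum of 2441.

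Array medians lay between 3.91 and 3.97 log2. The 4 hepatocyte markers measured, Alb, Apoa1, Ttr and Fgb, had means from 13.6 to 14.7 log2 and differences between 0.00 and 0.11. Cps1 and Otc are also made in the epithelium of the small intestine, and of its 4 measured markers Alpi, Vil1 and Lct averaged less than the median of any array. Its marker Fabp2, a fatty acid binding protein, averaged 9.78 log2 in HGI and 9.32 log2 in LGI, a difference of 0.46 (limma adjusted p = 0.655). The summed signal of the 4 was 695 to 1206 in HGI and 531 to 1142 in LGI, and its part in the urea cycle values was not tested. Correlations between arrays lay between 0.986 and 0.996, and 29 of the 45037 probe sets passed the threshold in all, a count that ran from 5 to 49 with 1 array left out and from 16 to 64 under the other alternatives.

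Around the cycle, 52 of 56 listed genes were measured, and 0 passed limma's test at the probe set of the highest mean, where 0.0824% of all named genes passed. At an unadjusted p under 0.05 limma gave 13 of the 52, against 9.3% of named genes, and the exact permutation test gave 10, against 8.67%. These counts are no test of an excess, since the lists were chosen with earlier results of these data known. The listed genes were also brighter: 40 of the 52 had a mean log2 of 6 or more, against 7161 of the 18193 named genes.

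Of the 18 measured genes that supply the cycle with nitrogen, bicarbonate and aspartate, 14 had differences below 0, with a median of -0.09. Over all named genes 58.2% were below 0, and 62.1% of the brighter ones (mean log2 of 6 or more). Without HGI 1, 7 of the 18 were above 0 and the median was -0.06. Gpt, alanine aminotransferase, which moves the amino group of alanine to glutamate, stood at -0.52 (10.37 ± 0.29 in HGI and 10.89 ± 0.24 in LGI log2, SD, n = 5 each; limma adjusted p = 0.348). Fh1, fumarate hydratase, which takes up the fumarate released by Asl, stood at -0.51 (limma adjusted p = 0.495). Car5a, the mitochondrial carbonic anhydrase that provides bicarbonate to Cps1, stood at -0.32 (limma adjusted p = 0.596). Sirt3, a mitochondrial deacetylase, stood at -0.31 (limma adjusted p = 0.674), and Sirt5, which activates Cps1 by removing acyl groups, at -0.01 (limma adjusted p = 0.993). Without HGI 1, Car5a stood at -0.21 and Sirt3 at -0.19.

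Among 20 measured genes of other ornithine and arginine use, 11 had differences below 0, with a median of -0.05. Both are near the values of all genes: 58.2% of named genes were below 0, and the brighter ones had a median of -0.04. Oat, ornithine aminotransferase, which takes ornithine out of the cycle towards glutamate, read 11.26, 11.23, 11.14, 10.69 and 10.68 log2 in the HGI mice, against 11.67, 12.36, 12.30, 11.67 and 12.50 log2 in the LGI mice. The groups did not overlap, and the difference of -1.10 (95% interval -1.50 to -0.70) did not pass over all probe sets (limma adjusted p = 0.0575); it passed when dim probe sets were left out (adjusted p = 0.0330 with a minimum mean log2 of 6) and without LGI 4 (adjusted p = 0.0335). Over all alternatives its adjusted p ran from 0.0198 with array weights to 0.206 without LGI 2, and it was 0.152 to 0.187 without HGI 4, HGI 5, LGI 3 or LGI 5. Prodh, proline dehydrogenase, stood at -0.63 (limma adjusted p = 0.461). Ddah1, which breaks down methylated arginine, stood at -0.51 (limma adjusted p = 0.407). Singled out after their values were seen, 2 other Ddah1 probe sets stood at -0.64 and -0.66 (limma adjusted p = 0.0575 and 0.174). The first had a mean of 8.94 ± 0.19 in HGI and 9.58 ± 0.16 in LGI log2 (SD, n = 5 each). At both, every HGI mouse was below every LGI mouse, which was so at 1.2% of all probe sets. The groups overlapped at the remaining Ddah1 probe sets, which stood at -0.15 and -0.44 (limma adjusted p = 0.835 and 0.572). Gamt, which makes creatine, stood at 0.49 (limma adjusted p = 0.780) but at 0.12 without LGI 4, which read 7.92 log2, against 9.60 to 9.89 log2 in the other LGI mice. The smallest difference was that of Slc25a29, a mitochondrial carrier of basic amino acids, 0.02 (limma adjusted p = 0.982).

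Of 14 measured regulators, 9 had differences below 0, with a median of -0.07. That count is near the share of all named genes below 0, 58.2%, and of the brighter ones, 62.1%. Without HGI 1, 8 of the 14 were above 0 and the median was 0.04. Klf15, a transcription factor of amino acid breakdown, stood at -0.34 (95% interval -0.65 to -0.02, limma adjusted p = 0.629) and Nr1h4, the bile acid receptor, at -0.29 (limma adjusted p = 0.671), or -0.19 without HGI 1. Ppargc1a, a coactivator of the fasting response, stood at -0.19 (95% interval -0.85 to 0.47) and Nr3c1, the glucocorticoid receptor, at 0.19 (limma adjusted p = 0.940 and 0.784). Creb1, through which glucagon acts on genes, stood at -0.02 (95% interval -0.22 to 0.19).

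**Figure D5:**
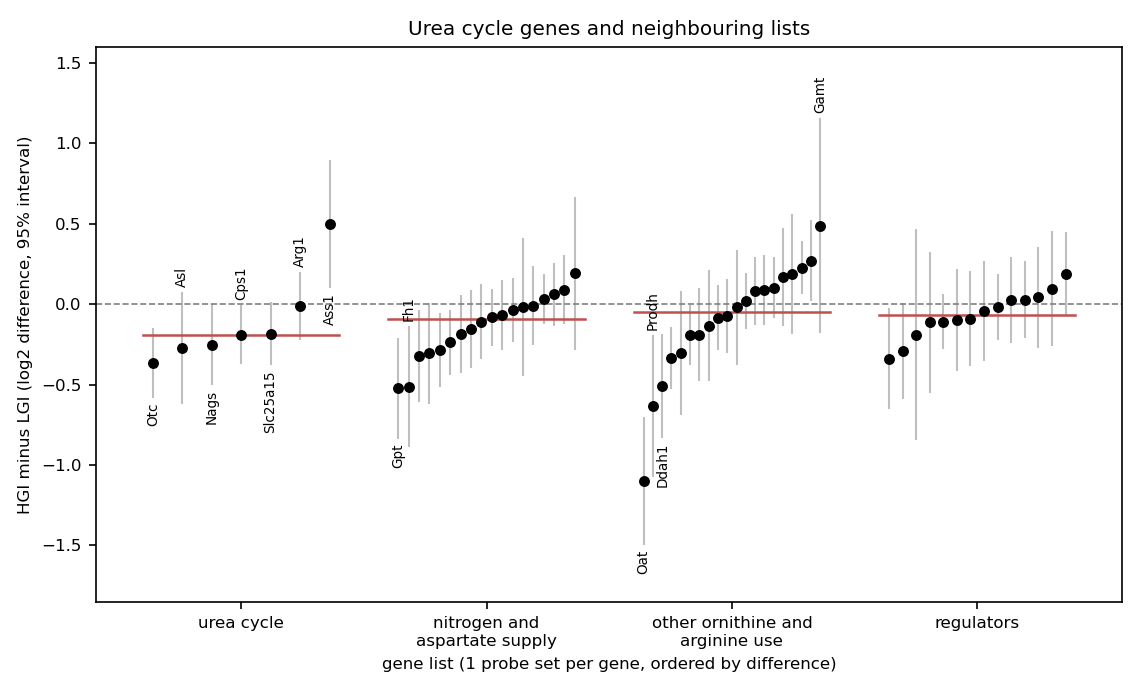
Difference between the diets (HGI minus LGI, log2) of the urea cycle genes and of 3 neighbouring lists, 1 probe set per gene, ordered by size within each list. Points are limma estimates, grey lines 95% intervals and red lines the medians, -0.19 for the urea cycle and -0.09, -0.05 and -0.07 for the lists of supply, other use and regulators; Oat lies lowest, at -1.10.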

How the data were processed

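Liver RNA of 10 mice was read on Affymetrix expression arrays. RNA was extracted with an RNeasy Mini Kit and biotin-labelled in one cycle, per the labels' protocols. The authors' deposited values are log2 expression per probe set, and the submitters' processing notes name RMA and R 2.6.1. RMA brings arrays to a shared distribution, which can shrink differences between arrays. Of 45101 probe sets, 64 controls were left out. Symbols came from the platform annotation, updated by gene ID through RefSeq (GRCm38.p6, names only): 34945 probe sets had 1 symbol, 932 several and 9160 none; 34741 IDs matched and 0 symbols changed.

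The comparison of HGI with LGI used limma 3.58.1 (R 4.3.3; lmFit, then eBayes, no covariates) over all probe sets, with Benjamini-Hochberg adjustment and a threshold of 0.05; each adjusted p of a difference is limma's. Two-sided exact permutations ran over all 252 assignments of the arrays, and those of pairs over 14400 arrangements within diets. The number of arrays limits the precision. The fit was tested on simulated data. Promoter windows were matched for 4 of the 7 genes. Named beside the 7 genes were, of each neighbouring list, any gene past the threshold, the 4 largest differences and the smallest, and the 5 genes most like Otc. The members and lists were chosen with earlier results of these data known. Mice with equal numbers were not treated as pairs.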

Additional observations from a re-analysis of the deposited data

Results flagged for a closer look

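At the Ass1 probe set, HGI 2 stood at 6.83 log2, apart from the other HGI mice, of which the next highest had 6.03. Of the 20 groups of 5 arrays examined, 2 for each of the 10 probe sets, this was the 1 with such a gap, and chance gives about 1 in 20.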

How the results depend on the processing

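The count of urea cycle probe sets past the threshold was 0 under all 20 alternatives tried: 2 filters on dim signals, a second quantile normalization, centring on medians, robust fitting with a variance trend, weights for arrays, a single probe set per gene, the replicate block, each array left out in turn (0 to 0), HGI 1 and LGI 4 left out together and, added after seeing the data, HGI 5 and LGI 4. The median difference of the 7 genes stayed between -0.24 and -0.16 under these (-0.24 to -0.16 with 1 array left out) and was -0.19 with the replicate block, which changed no call. Also added after seeing the data were averages over each gene's probe sets (-0.20), the shared probe set for Ass1 (-0.25), and marker lists and single neighbouring genes without 1 array. Deviations of same-numbered mice correlated between -0.05 and 0.07, so no strong pairing by number was seen. The labels do not say whether equal numbers share a day or litter, and these correlations cannot settle it. At the Ass1 probe set limma's adjusted p was 0.196 with the replicate block, against 0.535 without it. The Ass1 probe set falls out with a minimum mean log2 of 6, and 7 of the 10 probe sets remain with 1 per gene. Of the 10 probe sets, only Arg1, near 0, turned its sign: its values ran from -0.07 to 0.042 with 1 array left out (0.0051 without HGI 2, 0.04 without HGI 5, 0.01 without LGI 2 and 0.042 without LGI 3) and it stood at -0.0773 without HGI 1 and LGI 4. The dimmer Slc25a15 probe set ranged from -0.34 to -0.07 with 1 array left out. The count of neighbouring genes past the threshold, 0 as tested, was 1 (Oat) with either filter, with the variance trend, with array weights, with 1 probe set per gene and without HGI 1 and LGI 4, and 0 to 1 with 1 array left out; with fewer probe sets tested the adjustment is milder, and otherwise the cause was not tested. Adjusted p-values of Otc at its brightest probe set ran from 0.205 to 0.627.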

Other observations

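The urea cycle enzymes are known as periportal, made in hepatocytes near the incoming blood, while Glul, glutamine synthetase, clears the remaining ammonia in the last cells before the central vein. Of 7 measured periportal genes, which include Cps1, Arg1 and Ass1, 6 had differences below 0. Their median of -0.19 is the value of Cps1, as it is for the urea cycle genes. Those outside the cycle, singled out after their values were seen, were Ctsc (-0.61, limma adjusted p = 0.412), Hal, histidine ammonia lyase (-0.47, adjusted p = 0.288), Cyp2f2 (-0.28, adjusted p = 0.569) and Pck1, which makes phosphoenolpyruvate for gluconeogenesis (-0.18, adjusted p = 0.759). At Ctsc every HGI mouse was below every LGI mouse, which was so at 1.2% of all probe sets, and LGI 4 was the highest, at 12.10 log2. Glul, also singled out after its values were seen, stood at 0.27 (10.98 ± 0.17 in HGI and 10.71 ± 0.22 in LGI log2, SD, n = 5 each; limma adjusted p = 0.624), at 0.18 without LGI 4 and at 0.35 at its other probe set (adjusted p = 0.607). The 8 pericentral genes had 5 differences below 0 and a median of -0.12, where 58.2% of all named genes were below 0. They included Oat at -1.10 (limma adjusted p = 0.0575), Slc1a2, a glutamate transporter, at -0.46 (adjusted p = 0.624), Cyp2e1 at -0.15 (adjusted p = 0.726) and Cyp1a2 at 0.19 (adjusted p = 0.886).

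The 5 genes whose values followed those of Otc most closely, by Pearson's r over the 10 arrays with the mean of each diet subtracted, were Slc23a1 (0.98), Pcmtd1 (0.98), Pik3c2g (0.94), Tmlhe (0.94) and Suox (0.94), the highest of 7155 named genes whose mean log2 was 6 or more. No p is given, since they were picked for their r. Of these, Slc23a1, Pcmtd1 and Pik3c2g had differences between diets of 0.05, 0.02 and 0.07, Tmlhe, the first enzyme of carnitine synthesis, of -0.09, and Suox, sulfite oxidase, of -0.32 (limma adjusted p = 0.473).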
